A study of Rattus norvegicus with 17 samples.

Results

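The Notch receptors Notch1, Notch2 and Notch3, the ligands Jag1, Jag2, Dll1 and Dll4, the nuclear factor Rbpj and the targets Hes1 and Hey1 were examined in the rat meibomian gland (MG), the lipid-secreting gland of the eyelid. The 10 genes were chosen by name as core members of 1 signalling pathway, and 9 of them were found among the 17251 genes listed with a value for each rat. Hey1 was not listed and was not analysed here. All 9 listed genes were above the limit on low values and entered the test with 13105 genes in all. The data were RNA sequencing of dissected MG from 17 female Sprague-Dawley rats aged 10 to 12 weeks, 1 deposited column per rat. The control rats were 4 WT (Control WT) and 5 transgenic rats (Control P1.hMR). The irradiated rats were 3 WT (UVB WT) and 5 transgenic rats (UVB P1.hMR). Transgenic rats carry the human mineralocorticoid receptor (MR) gene under the P1 promoter of NR3C2, which is active in every tissue that expresses MR, so the transgene was not limited to the gland. The UVB groups had their eyelids irradiated daily for 5 days, a model of ocular rosacea, and the control groups of both genotypes were not irradiated. The study's methods count eyes for the UVB groups. Its reporting summary states that a sample was 1 eye or the pool of both eyes of an animal, so each column was taken as 1 rat.

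Notch receptors are single-pass membrane proteins that are activated by ligands of the Jagged and Delta-like families on a neighbouring cell. Ligand binding allows a metalloprotease and then the gamma-secretase complex to cut the receptor, and the freed intracellular part enters the nucleus, joins Rbpj and Mastermind proteins, and switches on genes such as Hes1. In stratified epithelia and their glands the pathway is known for guiding cells out of the basal layer into differentiation, while Notch3 is best known in smooth muscle cells and pericytes, and Dll4 in endothelium.

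The authors expressed each gene as TPM, a length-corrected share of the RNA of a sample, so levels of different genes can be set side by side. TPM keeps no read counts, so the depth behind each value is unknown and the error is the spread between rats. The columns summed to between 804378 and 840817 TPM, and 12372 to 12737 genes per rat reached 1 TPM. Human NR3C2 was not above 0 in any WT rat, and the P1.hMR rats had from 5.31 to 9.31 TPM of it, as labelled. All 11 meibocyte markers were listed, none at 0 throughout a group, and their summed level lay between 40600 and 55700 TPM over the 4 groups. In bulk tissue, fewer cells of a type and less RNA per cell cannot be told apart.

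Among the 9 genes, Hes1, a repressor that is a direct target of the pathway, had the highest level, with a mean of 71.1 TPM over all 17 rats. The ligand Jag2 followed at 50.5 TPM, the receptors Notch3, Notch1 and Notch2 at 37.1, 31.9 and 25.1 TPM, Rbpj at 22.1 TPM and Jag1 at 17.7 TPM. The Delta-like ligands were lowest, Dll1 at 6.13 TPM and Dll4 at 2.31 TPM. The order was nearly fixed within rats, since Hes1 was above Jag2, Jag2 above Notch3, Notch1 above Notch2 and Rbpj above Jag1 in 17 of 17 rats, and Notch2 above Rbpj in 16. Notch3 and Notch1 were the least separate neighbours, with Notch3 higher in 13 of 17 rats. The ranges over all rats overlapped for each pair of neighbours from Hes1 down to Jag1, but not between Jag1 and Dll1 or between Dll1 and Dll4. Jag2 made up the larger part of the 4 ligands in every group, from a mean share of 65.1% in Control P1.hMR to 67.1% in UVB WT rats. Notch4, the receptor known from endothelium, was a minor one at 1.74% to 2.63% of the 4 receptors.

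**Figure D1:**
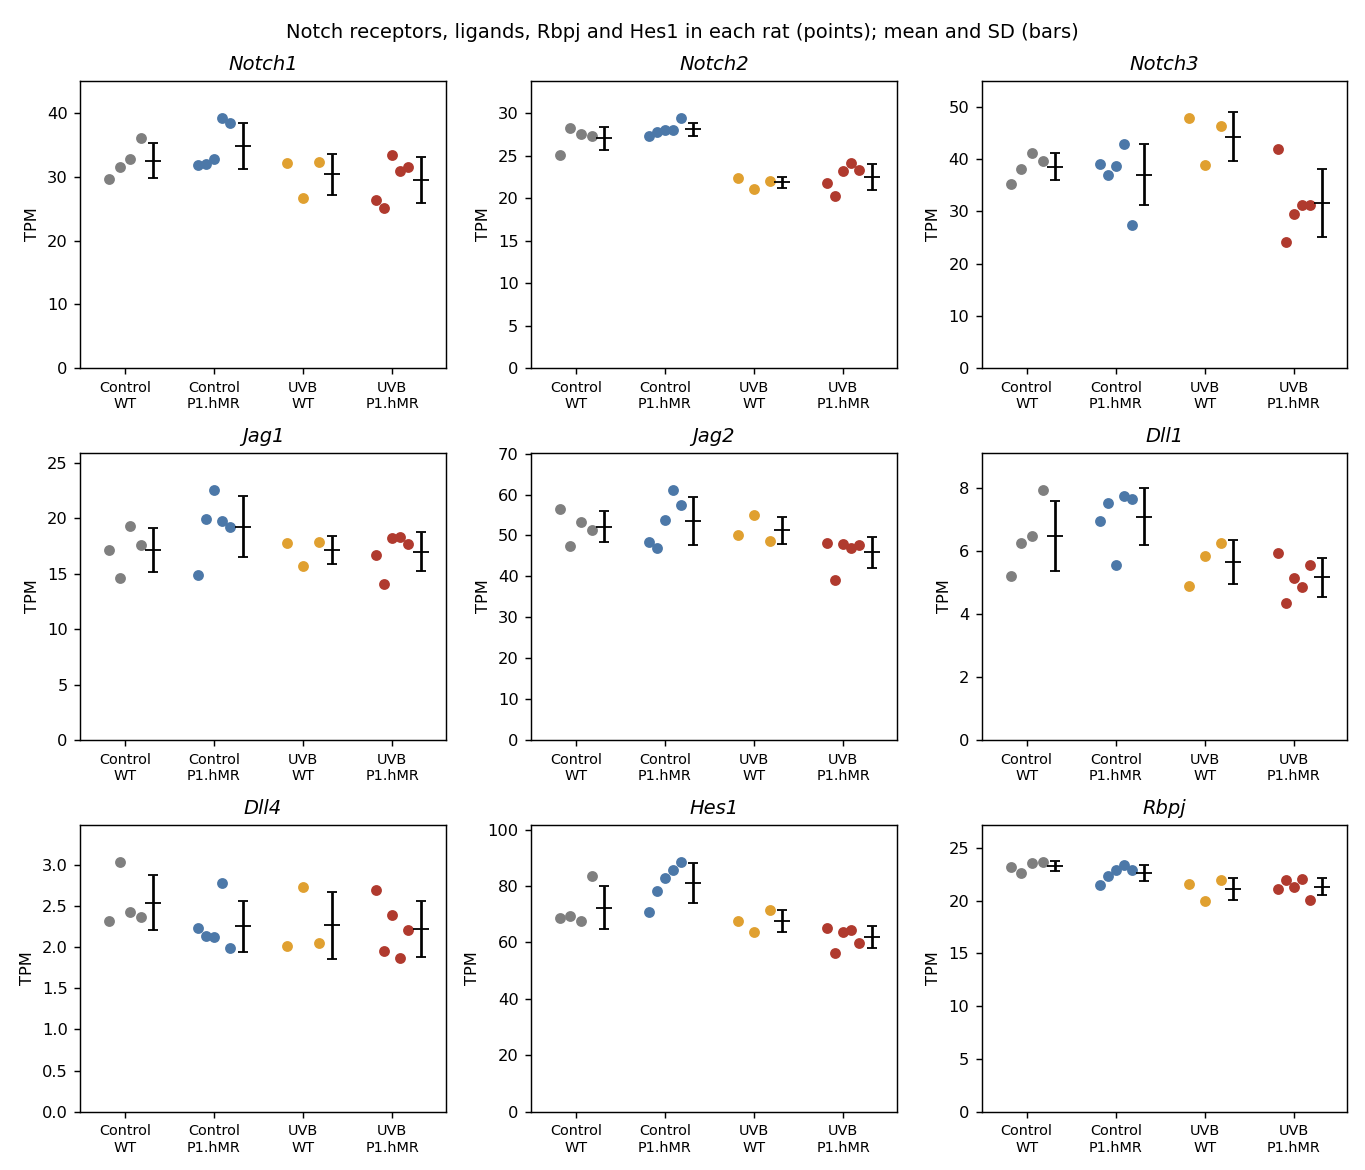
Level of each of the 9 listed genes in TPM (vertical axes, from 0) in the 4 groups (horizontal axes). Each point is 1 rat and the black mark is the group mean with its SD; Notch2 is the gene whose UVB rats lie below the control rats in both genotypes.

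The response to UVB was compared within each genotype as log2(TPM + 1) in a single limma model of all genes. Adding 1 makes fold changes of low genes appear smaller. A gene was called differentially expressed (DEG) when its p, adjusted by Benjamini-Hochberg, was under 0.05 and its log2 difference was 0.5 or more in either direction. None of the 9 genes was a DEG after UVB in WT rats, where 7.91% of all genes tested were, or in P1.hMR rats, where 10.8% were. At an unadjusted limma p under 0.05 there were 2 of the 9 in WT rats, against 35.3% of all genes tested, and 5 in P1.hMR rats, against 47.6%. The exact permutation test over rats gave 2 at p under 0.05 for WT, against 18.2% of all genes, and 4 for P1.hMR rats, against 46.5%. By adjusted p alone, without the fold change threshold, 1 of the 9 genes was lower after UVB in WT rats (Notch2), against 10.3% of all genes tested. In P1.hMR rats 5 of the 9 were lower (Notch1, Notch2, Jag2, Dll1 and Hes1), against 20.6% of all genes. None was higher, against 11.2% and 18.5% of all genes. Of the 9 differences, 7 were negative in WT and 9 in P1.hMR rats, while 48.8% and 52.9% of all genes tested were. These signs are not 9 independent results. As deviations from the group means over the rats, 30 of the 36 pairs of these genes had a positive Pearson r (median 0.29). The median difference of the 9 was -0.10 in WT rats and -0.23 in P1.hMR rats, beside 0.01 and -0.02 for all genes. The count in P1.hMR rats fell to 3, Notch2, Dll1 and Hes1, without UVB P1.hMR rat 2, and the count was also 3 without Control P1.hMR rat 4 and in a fit of the P1.hMR groups alone.

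**Figure D2:**
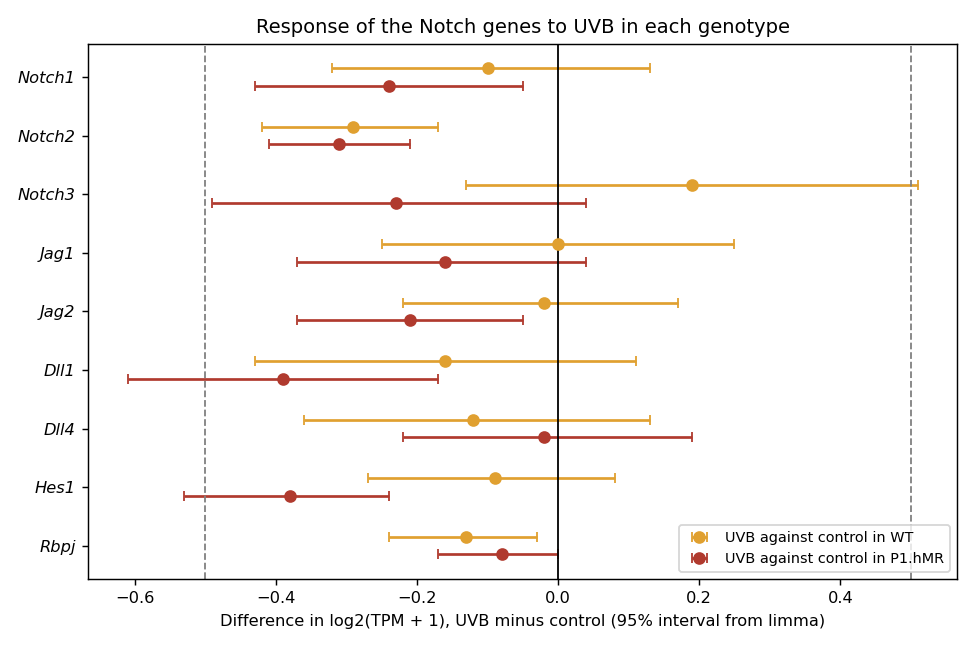
Difference in log2(TPM + 1) between UVB and control rats (horizontal axis) for each gene (vertical axis) in WT rats and in P1.hMR rats, with 95% intervals from limma. No point reaches the dashed lines at -0.5 and 0.5, the fold change threshold for a DEG, and all 9 points of the P1.hMR rats lie below 0.

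Notch2 was the only one of the 9 genes lower by adjusted p in both genotypes. In Control WT rats it was at 25.15, 28.23, 27.56 and 27.33 TPM, and in UVB WT rats at 22.39, 21.16 and 22.07 TPM. Every UVB WT rat was below every Control WT rat. The log2 difference was -0.29 (SE 0.06, limma adjusted p = 0.0024), or 0.815-fold, and the two-sided exact permutation p of 0.0286 is the smallest that 4 against 3 rats allow. Control P1.hMR rats were at 27.29, 27.76, 28.10, 28.05 and 29.41 TPM, and UVB P1.hMR rats at 21.81, 20.27, 23.21, 24.15 and 23.33 TPM. Here too the groups did not overlap, and the log2 difference was -0.31 (SE 0.05, adjusted p = 0.000125, exact permutation p = 0.00794, the smallest that 5 against 5 allow). The difference between the 2 responses was -0.01 (95% interval -0.17 to 0.14). Groups without overlap and lower after UVB were seen for 12.6% of all genes tested in WT and 14.0% in P1.hMR rats.

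Notch1, the main receptor of the epidermis, lay between 29.61 and 36.14 TPM in Control WT rats and at 32.23, 26.66 and 32.28 TPM in UVB WT rats. These groups overlapped, with a log2 difference of -0.10 (SE 0.11, adjusted p = 0.554). In Control P1.hMR rats it was at 31.92, 32.11, 32.81, 39.18 and 38.45 TPM, and in UVB P1.hMR rats at 26.33, 25.07, 33.48, 30.98 and 31.49 TPM. Only the UVB P1.hMR rat at 33.48 TPM reached into the control range. Notch1 fell by 0.24 on the log2 scale (SE 0.09, adjusted p = 0.0413), and the exact permutation p was 0.0635. The adjusted p of Notch1 was between 0.102 and 0.11 without any 1 of 4 rats (Control P1.hMR rats 4 and 5 and UVB P1.hMR rats 1 and 2), 0.0547 with no filter and 0.0529 in a fit of the P1.hMR groups alone.

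Notch3 was the most variable of the 3 receptors. In Control WT rats it was at 35.19, 38.06, 41.29 and 39.69 TPM, and in UVB WT rats at 47.81, 38.92 and 46.33 TPM. In Control P1.hMR rats, 4 rats lay between 37.06 and 42.91 TPM and 1 at 27.33 TPM. In UVB P1.hMR rats, 4 rats lay between 24.12 and 31.28 TPM and 1 at 41.95 TPM. UVB and control rats therefore overlapped in both genotypes. The log2 difference was 0.19 for WT (SE 0.15, adjusted p = 0.384) and -0.23 for P1.hMR rats (SE 0.13, adjusted p = 0.16). The latter was -0.33 (adjusted p = 0.0293) without UVB P1.hMR rat 1, the rat at 41.95 TPM, -0.33 (adjusted p = 0.0326) without Control P1.hMR rat 5, and -0.14 (adjusted p = 0.379) without UVB P1.hMR rat 2. The share of Notch3 in the summed level of the 4 receptors was 38.5% ± 0.948 (SD, n = 4) in Control WT, 44.8% ± 0.974 (SD, n = 3) in UVB WT, 36.3% ± 4.55 (SD, n = 5) in Control P1.hMR and 36.6% ± 5.09 (SD, n = 5) in UVB P1.hMR rats.

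Of the ligands, Jag2 and Dll1 were lower after UVB by adjusted p in P1.hMR rats. Dll1, a Delta-like ligand of low level, was at 6.95, 7.54, 5.56, 7.75 and 7.66 TPM in Control P1.hMR rats and at 5.94, 4.35, 5.14, 4.85 and 5.56 TPM in UVB P1.hMR rats. The groups overlapped through 1 control rat, which at 5.56 TPM was within the UVB range. Its log2 difference of -0.39 (SE 0.11, adjusted p = 0.00808, exact permutation p = 0.0238) was close in size to the -0.38 of Hes1. In WT rats Dll1 lay between 5.22 and 7.93 TPM in controls and at 4.90, 5.83 and 6.26 TPM after UVB, a log2 difference of -0.16 (SE 0.13, adjusted p = 0.40).

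Jag2, the ligand of highest level, was at 48.42, 46.93, 53.68, 61.04 and 57.47 TPM in Control P1.hMR rats. In UVB P1.hMR rats it was at 48.04, 39.16, 47.80, 46.84 and 47.65 TPM, so 4 of these rats lay close together and rat 2 well below them. The groups overlapped slightly, and the log2 difference was -0.21 (SE 0.08, adjusted p = 0.0339, exact permutation p = 0.0556). Leaving out 1 rat at a time moved the adjusted p between 0.015 and 0.0947, the latter without Control P1.hMR rat 4, the highest rat. It was also above 0.05 without Control P1.hMR rat 3 or 5 or UVB P1.hMR rat 2 (0.0591, 0.083 and 0.0928) and in a fit of the P1.hMR groups alone (0.0527). In WT rats the means were 52.1 ± 3.83 TPM (SD, n = 4) in controls and 51.2 ± 3.27 TPM (SD, n = 3) after UVB, with a log2 difference of -0.02 (95% interval -0.22 to 0.17).

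Jag1 and Dll4 did not pass the test in either genotype. Jag1, the other Jagged ligand, lay between 14.57 and 19.27 TPM in Control WT rats and at 17.80, 15.69 and 17.86 TPM after UVB in WT rats, a log2 difference of 0.00 (95% interval -0.25 to 0.25). In P1.hMR rats it lay between 14.87 and 22.52 TPM in controls and between 14.10 and 18.32 TPM after UVB, a difference of -0.16 (95% interval -0.37 to 0.04). Without Control P1.hMR rat 1 the difference of Jag1 was -0.25 (adjusted p = 0.0321). Dll4, the endothelial ligand, lay between 1.86 and 3.03 TPM over all rats. Its differences were -0.12 in WT (95% interval -0.36 to 0.13) and -0.02 in P1.hMR rats (95% interval -0.22 to 0.19). The endothelial list, in contrast, had 9 of its 14 tested genes higher after UVB by adjusted p in WT rats, against 11.2% of all genes. In P1.hMR rats, where Emcn was lower, the list had 7 higher, against 18.5% of all genes. Its summed level went from between 123 and 143 TPM in Control WT to between 171 and 203 TPM in UVB WT rats, without overlap. For the P1.hMR groups it was between 131 and 155 TPM without UVB and between 152 and 200 TPM after it, with overlap.

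Rbpj, the DNA-binding factor to which the cut receptor is recruited, varied least. It was at 23.18, 22.67, 23.58 and 23.66 TPM in Control WT rats and at 21.55, 19.94 and 21.93 TPM in UVB WT rats. These groups did not overlap, but the log2 difference of -0.13 (SE 0.05) had an adjusted p of 0.0601 with limma and an exact permutation p of 0.0286. The adjusted p of Rbpj was under 0.05 in 3 of 8 other settings (median-of-ratios scaling, quantile normalization and a mean of at least 5 TPM), with 0.0261 the lowest, and the WT count was then 2. In P1.hMR rats it lay between 21.47 and 23.42 TPM in controls and between 20.07 and 22.10 TPM after UVB, a difference of -0.08 (SE 0.04, adjusted p = 0.12, exact permutation p = 0.0317).

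Hes1 was at 70.63, 78.15, 82.99, 85.83 and 88.50 TPM in Control P1.hMR rats. In UVB P1.hMR rats it was at 65.16, 56.38, 63.89, 64.49 and 59.67 TPM. Every UVB P1.hMR rat was below every Control P1.hMR rat. Hes1 fell by 0.38 on the log2 scale (SE 0.07, adjusted p = 0.000407, exact permutation p = 0.00794), or 0.766-fold, and it stayed past an adjusted p of 0.05 with each of the 17 rats left out in turn. In Control WT rats it was at 68.76, 69.49, 67.61 and 83.57 TPM and in UVB WT rats at 67.57, 63.74 and 71.60 TPM. The WT groups overlapped, with a log2 difference of -0.09 (SE 0.08, adjusted p = 0.456). This difference of Hes1 was -0.02 without Control WT rat 4, the rat at 83.57 TPM.

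The other direct targets on the list that were tested, Nrarp, Heyl and Hey2, did not pass the test in either genotype. Nrarp, a target that feeds back on the pathway, lay between 24.77 and 28.57 TPM in Control WT and at 31.79, 26.12 and 29.53 TPM in UVB WT rats, a log2 difference of 0.12 (SE 0.10, adjusted p = 0.432). In P1.hMR rats it lay between 25.81 and 30.78 TPM in controls and between 24.36 and 35.44 TPM after UVB, a difference of 0.10 (SE 0.09, adjusted p = 0.372). Hes1 and Nrarp thus had differences of opposite sign in both genotypes. The difference between these genes was not tested. Heyl and Hey2 lay between 0.62 and 2.98 TPM, and Hes5 was at or below 0.29 TPM in every rat and did not enter the test.

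The promoters of these genes are shown because Hes1 and Nrarp are both targets and Dll1 was lower in P1.hMR rats after UVB. Each is the 250 bases before the RefSeq start site in build GRCr8 (the deposited values were made on rn7), printed 5′ to 3′ on the strand of the gene. Capitals mark TGGGAA, the core of the sequence that Rbpj binds, or TTCCCA, the same letters on the opposite strand. Hes1 is on the minus strand at chr11:84213046-84213295, Dll1 on the minus strand at chr1:64993275-64993524 and Nrarp on the plus strand at chr3:28390495-28390744.
Hes1: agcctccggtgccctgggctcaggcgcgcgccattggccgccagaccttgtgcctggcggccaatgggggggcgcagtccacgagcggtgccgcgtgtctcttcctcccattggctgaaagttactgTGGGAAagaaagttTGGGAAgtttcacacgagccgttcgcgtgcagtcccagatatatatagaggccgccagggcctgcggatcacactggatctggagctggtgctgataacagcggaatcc
Dll1: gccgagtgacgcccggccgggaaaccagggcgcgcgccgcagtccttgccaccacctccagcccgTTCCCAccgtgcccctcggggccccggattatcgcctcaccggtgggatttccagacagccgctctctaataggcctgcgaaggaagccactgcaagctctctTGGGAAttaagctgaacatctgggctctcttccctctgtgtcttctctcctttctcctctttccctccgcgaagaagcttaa
Nrarp: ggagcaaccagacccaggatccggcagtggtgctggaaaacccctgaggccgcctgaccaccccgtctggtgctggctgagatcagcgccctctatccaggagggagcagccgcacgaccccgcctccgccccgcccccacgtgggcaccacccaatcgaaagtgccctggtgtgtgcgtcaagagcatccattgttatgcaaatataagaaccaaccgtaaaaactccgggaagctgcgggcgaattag
The Hes1 window held TGGGAA at 2 places, starting 123 and 109 bases before the start site. The Dll1 window held it 2 times, starting 185 bases before the start site on the opposite strand and 82 bases before it on the same strand. The Nrarp window held neither form. Of 33469 such windows over all genes, 22.1% held at least 1 match and 2.71% held 2 or more. Of the 9 listed genes, 8 had a window in the table and 3 of these held a match, namely Hes1, Dll1 and Rbpj. Notch1, Notch2 and Jag2, which were also lower by adjusted p in P1.hMR rats, held none. Outside the 9 genes, Hey2 and Notch4 each held 2 matches. After UVB in P1.hMR rats, Hey2 had a difference of -0.04 (adjusted p = 0.858) and Notch4 one of 0.22 (adjusted p = 0.0408). The relation between matches and UVB differences was not tested. A match is a description of these letters, and binding was not measured.

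P1.hMR and WT rats were then compared under the same treatment. None of the 9 genes was a DEG under UVB, where 0.0229% of all genes tested were, or without UVB, where 0.00763% were. At an unadjusted limma p under 0.05 there was 1 of the 9 in each comparison, Notch3 under UVB, against 10.3% of all genes tested, and Hes1 without it, against 4.03%. The exact permutation test gave 0 in both at p under 0.05, against 6.62% and 3.8% of all genes. Under UVB, Notch3 was at 24.12 to 41.95 TPM in P1.hMR and at 38.92 to 47.81 TPM in WT rats. A single P1.hMR rat reached into the WT range, and the log2 difference was -0.49 (SE 0.14, 95% interval -0.80 to -0.19, adjusted p = 0.278, exact permutation p = 0.0714). Jag2 was the 1 gene of the 9 whose groups did not overlap under UVB, lower in all 5 P1.hMR rats than in the 3 WT rats, against 4.14% of all genes tested. Its log2 difference was -0.16 (SE 0.09, adjusted p = 0.559, exact permutation p = 0.0536). The paper names Notch1 among genes that curb proliferation and favour cell death, from an enrichment analysis of P1.hMR against WT rats under UVB. Here the log2 difference of Notch1 under UVB was -0.05 (SE 0.10, adjusted p = 0.911, exact permutation p = 0.607). Without UVB, Hes1 had a difference of 0.17 (SE 0.07, adjusted p = 0.998, exact permutation p = 0.0952).

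The interaction of genotype and UVB asks whether the UVB response differs between genotypes. None of the 9 genes, and 0.0% of all genes tested, was a DEG in it. At an unadjusted limma p under 0.05 there were 2 of the 9, against 6.92% of all genes tested. These were Hes1 at -0.29 (SE 0.11, adjusted p = 0.704) and Notch3 at -0.42 (SE 0.20, adjusted p = 0.711). The exact permutation test was not run on the interaction. The lower Notch1, Jag2, Dll1 and Hes1 in P1.hMR rats were therefore not shown to differ from the WT response. Their interactions had 95% intervals of -0.43 to 0.15, -0.44 to 0.06, -0.58 to 0.12 and -0.52 to -0.06.

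Single rats stood out across the 9 genes. UVB P1.hMR rat 2 was the lowest of all 17 rats for 7 of the 9 genes, the exceptions being Dll4 and Rbpj. The same rat was the lowest for 11.6% of all genes tested, the highest share of any rat, and its median-of-ratios scaling factor of 0.967 was the lowest of all rats. Their part in the low values of the 7 genes was not tested. The highest values were spread over 6 rats, none of them UVB P1.hMR rats.

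**Figure D3:**
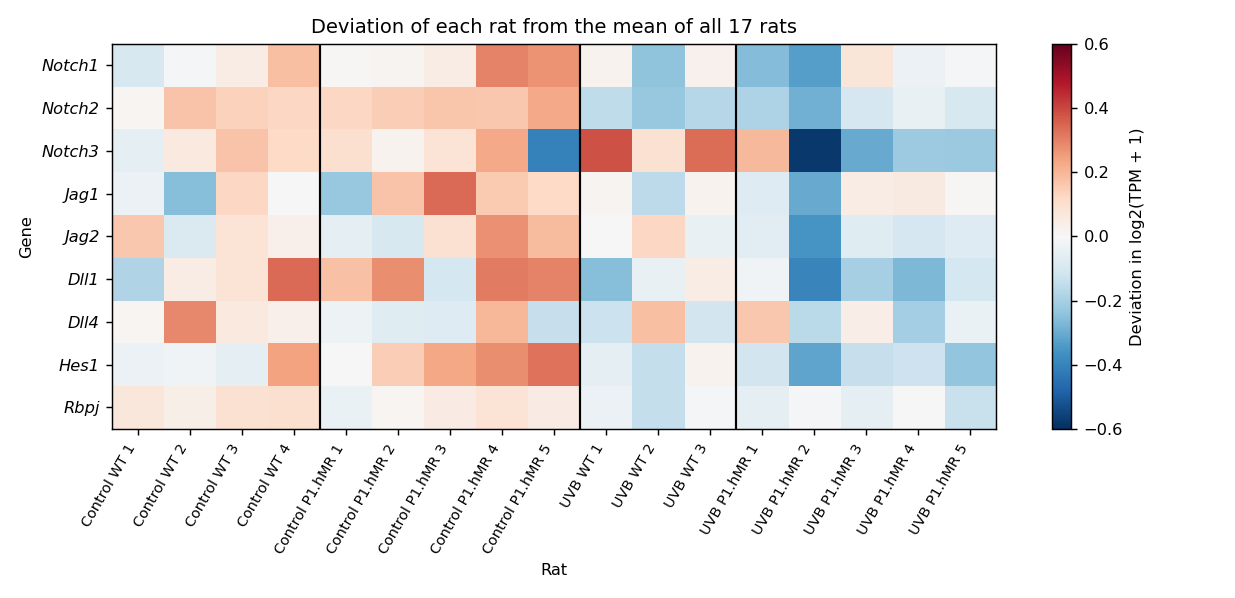
Deviation of each rat (columns, ordered by group) from the mean of all 17 rats for each gene (rows), in log2(TPM + 1) on the colour scale, with blue below and red above the mean. UVB P1.hMR rat 2 is blue for most genes, and Notch2 is blue in all 8 UVB rats.

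The genes whose levels moved most like each member were sought among 9935 genes with a mean of at least 5 TPM, by Pearson correlation of deviations from the group means over the 17 rats, which share group sizes and library scale. For Notch1 these were Card19, Naprt and Crtapl1 (r from 0.90 to 0.92), and for Notch2 they were Ddx39b, Telo2 and Itgb4 (0.91 to 0.92). Itgb4 encodes an integrin of the hemidesmosomes that anchor basal epithelial cells. For Notch3 they were Prnp, Cib1 and Cenpc (0.79 to 0.81). For Jag1 they were Ier5, Slco4a1 and Cyp26b1 (0.83 to 0.86), the last an enzyme that breaks down retinoic acid. For Jag2 they were Pwwp2b, Mta2 and Zfp385a (0.90 to 0.94), for Dll1 Cadps2, Mdk and Vps26c (0.85 to 0.87), and for Dll4 Pgm5, Ptpn4 and Pdlim3 (r of 0.83 each). For Hes1 they included Ubxn8 and Col7a1 (r of 0.89 and 0.87), of which Col7a1 encodes the collagen of the anchoring fibrils under basal epithelium. For Rbpj they were Sinhcaf, Manea and Kif3b (0.83 to 0.85). All these genes were picked as the highest among 9935 over 17 rats, and no p-value was computed for them.

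Markers of other cell types were set beside these genes. The summed level of the 8 listed basal epithelial markers was 8110 to 10300 TPM in Control WT and 10600 to 11700 TPM in UVB WT rats, and 8780 to 10000 and 8390 to 13500 TPM in the P1.hMR groups. The basal sums overlapped between control and UVB rats in P1.hMR rats but not in WT rats. The 11 listed mural markers summed to 885 to 1130 TPM in Control WT, 1040 to 1140 TPM in UVB WT, 796 to 1120 TPM in Control P1.hMR and 847 to 935 TPM in UVB P1.hMR rats. By adjusted p, 4 of the 11 mural markers were higher and none lower after UVB in WT rats, and 2 were higher and 2 lower in P1.hMR rats. Myh11, the myosin of smooth muscle, fell by 0.75 on the log2 scale after UVB in P1.hMR rats (adjusted p = 0.000125) and had a difference of -0.30 in WT rats (adjusted p = 0.138). Acta2 was the other mural marker lower in P1.hMR rats (-0.26, adjusted p = 0.0148). Pdgfrb (0.50, adjusted p = 0.000557) and Des (0.41, adjusted p = 0.0298) were the 2 higher there. Hair follicle markers were lower by adjusted p in 10 of 12 tested genes in WT and 7 of 12 in P1.hMR rats. Their summed level was 1100 to 1410 TPM in Control WT, 410 to 1110 TPM in UVB WT, 865 to 1730 TPM in Control P1.hMR and 578 to 909 TPM in UVB P1.hMR rats. Meibocyte markers summed to 46000 to 55700 TPM in Control WT, 42800 to 49500 TPM in UVB WT, 45300 to 51000 TPM in Control P1.hMR and 40600 to 48000 TPM in UVB P1.hMR rats. The mural and meibocyte sums overlapped between control and UVB rats in both genotypes. By adjusted p, 3 of the 11 meibocyte markers were higher and 3 lower in WT rats, and 1 higher and 2 lower in P1.hMR rats. Of all genes tested, 11.2% were higher and 10.3% lower by adjusted p in WT rats. In P1.hMR rats these shares were 18.5% and 20.6%. No marker of these 4 lists was at 0 throughout a group.

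The marker sums were also set against the Notch genes as deviations from the group means over the 17 rats, in 90 relations (9 genes and 10 marker lists). P-values came from 100000 permutations of rats within their groups and were adjusted over the 90. Notch1 had a Pearson r of 0.77 with the basal epithelial sum (permutation p = 0.0006, adjusted p = 0.054), a Spearman rho of 0.80 (permutation p = 0.00106, adjusted p = 0.0954), and an r of 0.78 without the 2 rats farthest from the median sum. With the meibocyte sum, Notch1 had an r of -0.75 (permutation p = 0.00211, adjusted p = 0.0949), a rho of -0.72 (permutation p = 0.004, adjusted p = 0.122) and an r of -0.70 without those 2 rats. Notch2 had an r of 0.80 with the basal sum (permutation p = 0.00626, adjusted p = 0.141), a rho of 0.69 (permutation p = 0.0115, adjusted p = 0.173) and an r of 0.67 without the 2 rats. Relations of like size were seen with the endothelial sum. For Notch1 its r was 0.75 (permutation p = 0.00412, adjusted p = 0.124) and its rho 0.75 (permutation p = 0.0041, adjusted p = 0.122). For Notch2 the endothelial r was 0.70 (permutation p = 0.00844, adjusted p = 0.148) and the rho 0.70 (permutation p = 0.00544, adjusted p = 0.122). None of the 90 values of r passed adjustment, and 15 had an unadjusted permutation p under 0.05. The genes and the sums come from the same libraries and share their scale. Sums of TPM weigh most on the highest genes, Krt14 and Krt5 for the basal list and Scd and Awat2 for the meibocyte list. These deviations lie within groups, and the part of the marker levels in the UVB differences of the Notch genes was not tested.

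The other genes of the pathway were taken from lists of receptors, ligands, targets, nuclear partners, receptor cleavage and receptor glycosylation. Further lists held ligand ubiquitin ligases, genes of inhibition and turnover, and epidermal genes downstream of Notch. Of 49 such genes 44 were tested. In WT rats none was a DEG, and 2 were higher and none lower after UVB by adjusted p, with 8 at an unadjusted limma p under 0.05 (35.3% of all genes tested) and 2 by the exact permutation test (18.2% of all genes). In P1.hMR rats 1 was a DEG, and 8 were higher and 10 lower by adjusted p, with 23 at an unadjusted limma p under 0.05 (47.6% of all genes) and 18 by the exact permutation test (46.5% of all genes). Of all genes tested, 7.91% in WT and 10.8% in P1.hMR rats were DEGs. By adjusted p, 11.2% and 18.5% of all genes were higher, and 10.3% and 20.6% lower. The median difference over the 44 genes was 0.03 in WT rats and -0.02 in P1.hMR rats, beside 0.01 and -0.02 for all genes tested.

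The DEG was Dtx4, an E3 ubiquitin ligase of the Deltex family that acts on Notch receptors. It was at 31.02, 27.48, 33.15, 40.49 and 36.96 TPM in Control P1.hMR rats and at 58.16, 48.95, 57.43, 53.81 and 52.81 TPM in UVB P1.hMR rats, without overlap. Dtx4 rose by 0.68 on the log2 scale (SE 0.10, adjusted p = 0.000118, exact permutation p = 0.00794). In WT rats it lay between 28.09 and 36.70 TPM in controls and at 30.95, 40.04 and 42.20 TPM after UVB, a difference of 0.26 (SE 0.13, adjusted p = 0.149). The interaction for Dtx4 was 0.41 (SE 0.16, adjusted p = 0.704). Under UVB, P1.hMR rats had a higher mean than WT rats by 0.52 (SE 0.12, adjusted p = 0.213), and Dtx4 was a DEG in this comparison only without UVB WT rat 3. Its relative Dtx3 moved the other way in P1.hMR rats, with a fall of 0.35 (SE 0.07, adjusted p = 0.000541).

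The next largest differences in P1.hMR rats were those of Neurl1b and Neurl1, ubiquitin ligases of the Neuralized family, which act on Notch ligands. Neurl1b fell by 0.47 (SE 0.09, adjusted p = 0.0005), from 10.7 ± 1.45 to 7.39 ± 0.711 TPM (SD, n = 5 each), while Neurl1 had a difference of -0.45 (SE 0.20, adjusted p = 0.0835). In WT rats the 3 largest differences were those of Krt1 (0.38, adjusted p = 0.0754), Neurl1 (-0.35, adjusted p = 0.319) and Mfng (0.31, adjusted p = 0.131), and none passed the test. Krt1 is a keratin of suprabasal cells and Mfng a glycosyltransferase that modifies Notch receptors. By list, 3 of 6 tested nuclear partners and 2 of 4 ligand ubiquitin ligases were lower by adjusted p in P1.hMR rats and none higher. Among the 4 receptors, Notch4 was higher (0.22, SE 0.08, adjusted p = 0.0408, exact permutation p = 0.00794), while Notch1 and Notch2 were lower. In receptor cleavage 2 of 9 were higher (Furin and Adam10, which cut the receptor), and in receptor glycosylation 2 of 5 (Mfng and Poglut1, which add sugars to it), with none lower. Of the 9 genes of inhibition and turnover, 1 was higher (Dtx4) and 4 lower. Of the 7 epidermal genes downstream of Notch, Krt1 (0.45, adjusted p = 0.00869) and Cdkn1a (0.36, adjusted p = 0.00341), an inhibitor of the cell cycle, were higher and Gata3 (-0.33, adjusted p = 0.00102), a transcription factor, was lower. These lists are small, and the shares of all genes tested were 20.6% lower and 18.5% higher.

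**Figure D4:**
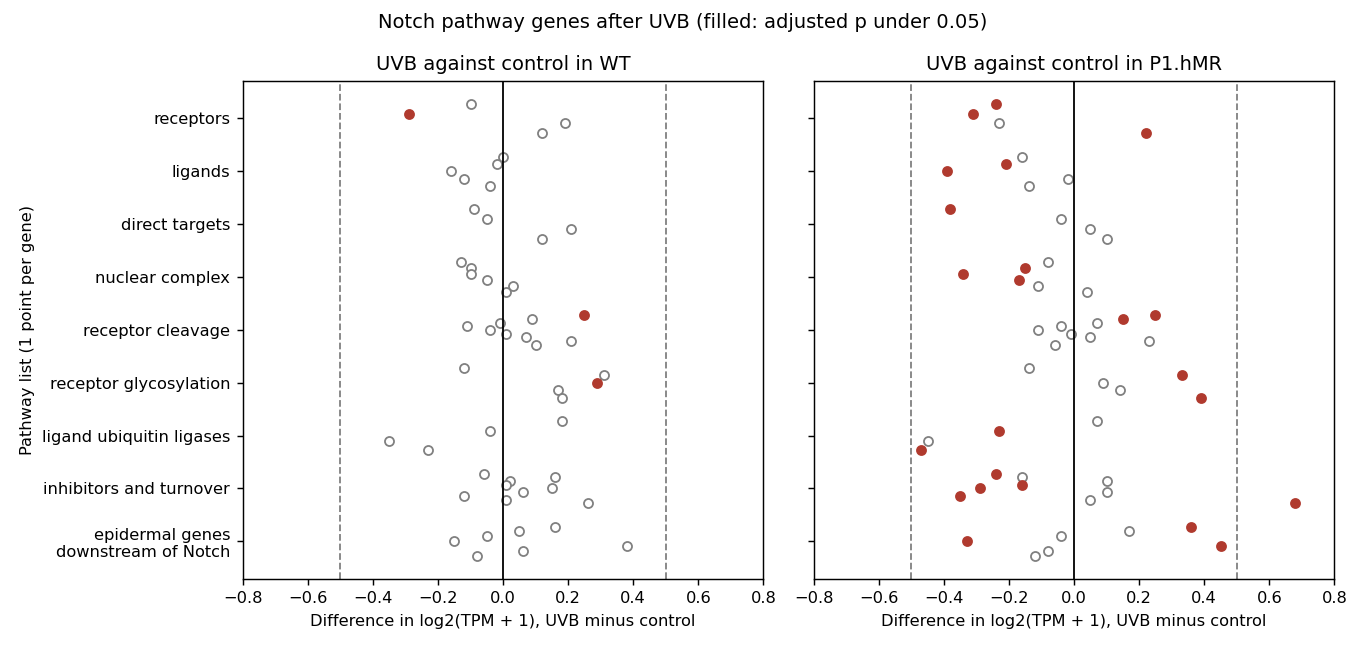
Difference in log2(TPM + 1) between UVB and control rats (horizontal axes) for each tested pathway gene (1 point), grouped by list (vertical axis), in WT rats on the left and P1.hMR rats on the right. Filled points have an adjusted p under 0.05, 3 for WT and 23 for P1.hMR rats, and only Dtx4 in P1.hMR rats lies beyond the dashed fold change threshold.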

How the data were processed

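Female Sprague-Dawley rats gave 17 MG samples, assigned to 4 groups from their labels. The authors deposited TPM values, with no counts, and their methods name FastQC, alignment to rn7 with STAR and quantification with RSEM, while the processing notes in the labels name FastQC, Trimmomatic, DRAGEN and Picard with rn7, so the exact pipeline is uncertain. From the deposited TPM, log2(TPM + 1) was computed, and genes reaching 1 TPM in 3 or more rats (13105) were fitted in R 4.3.3 with limma 3.58.1. All 17 rats were in 1 fit of 4 group means, with the trend option for the variance. P-values were two-sided and adjusted by Benjamini-Hochberg over all genes tested, and a DEG had an adjusted p under 0.05 and an absolute log2 difference of at least 0.5. The model was tested on simulated data. Single genes were also compared by two-sided exact permutation tests in Python 3.11.15. Depth is unknown, and p-values measure the spread between these rats.

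The member genes and the lists were chosen with earlier results of these data known. All member genes are named, with the other pathway genes that were DEGs or had the 3 largest absolute differences in a UVB comparison, the 3 genes most like each member (1 of them is not reported here), and marker genes set beside a result. Dtx3, Cdkn1a, Gata3, Furin, Adam10, Poglut1, Rfng, Nrarp, Heyl, Hey2, Hes5 and Notch4 were named in addition, after their values were seen. Promoters came from a RefSeq table of GRCr8. Alternatives were a pseudocount of 0.1, no filter, a mean of at least 5 TPM, median-of-ratios scaling, quantile normalization, only the groups compared, no variance trend, a replicate block, no fold change threshold and each rat left out.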

Additional observations from a re-analysis of the deposited data

Results flagged for a closer look

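Within groups of 4 or 5 rats, 3 of 27 sets of values held a rat far from the others by Dixon's criterion, where chance gives about 1 in 20. These were Jag2 at 39.16 TPM in UVB P1.hMR rat 2, Dll4 at 3.03 TPM in Control WT rat 2 and Hes1 at 83.57 TPM in Control WT rat 4. Without Control WT rat 4, the log2 difference of Hes1 after UVB in WT rats went from -0.09 to -0.02, without a call in either case. The UVB responses of the genotypes differed at an unadjusted limma p under 0.05 for Notch3, with an interaction of -0.42, and for Hes1, with -0.29, and neither passed adjustment over all genes.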

How the results depend on the processing

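No Notch gene was a DEG in any of the 5 comparisons under any alternative that kept the fold change threshold. Without the threshold, 1 was counted in WT and 5 in P1.hMR rats after UVB, with 2 and 18 of the other pathway genes and 2820 and 5123 of all genes. A mean of at least 5 TPM, a setting with fewer genes tested, left 690 and 882 DEGs, and 0 in either genotype comparison. With a pseudocount of 0.1, 2 other pathway genes were DEGs in P1.hMR rats, Dtx4 and Neurl1b. For genotype under UVB all genes gave 1 DEG with that pseudocount, 1 with only the groups compared and 1 with the replicate block, against 3. With each rat left out, this count ran from 1 to 52, the highest without UVB WT rat 3, the count without UVB from 1 to 6 and that of the interaction from 0 to 8, while other pathway genes gave 0 to 1 in WT, 1 to 2 in P1.hMR rats and 0 to 1 for genotype under UVB. The cause was not tested.

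Of 1111 log2 differences of Notch genes under alternatives, 29 changed sign, each of a difference of at most 0.0698 in size. After UVB, Jag2 in WT rats became 0.0051 with the replicate block and Dll4 in P1.hMR rats 0.0261 with quantile normalization. For genotype under UVB, Jag1 became 0.0088 with median-of-ratios scaling and 0.0032 with quantile normalization, and the interaction of Notch2 became 0.0083 with median-of-ratios scaling. With rats left out, the range was -0.0683 to 0.0609 for Jag1 and -0.0726 to 0.0161 for Jag2 in WT, -0.0665 to 0.0401 for Dll4 in P1.hMR rats, and -0.0381 to 0.0223 for the interaction of Notch2. For genotype under UVB it was -0.1344 to 0.0084 for Notch1, -0.0713 to 0.0484 for Jag1, -0.0741 to 0.0807 for Dll4 and -0.0285 to 0.037 for Rbpj, and without UVB -0.1255 to 0.0326 for Notch3 and -0.015 to 0.0781 for Jag2.

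Replicate numbers gave no sign of pairing between rats. Same-numbered rats of different groups had correlations from -0.187 to 0.235 over 22 pairs (median -0.005). Differently numbered rats had correlations from -0.264 to 0.181 over 85 pairs (median 0.008). With the replicate block, 5 Notch genes passed in P1.hMR rats, as without it. Depth is unknown, so its limits could not be given.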
